A study of Mus musculus with 9 samples.

Results

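The genes of enteric neurons and glia described here were chosen as 37 gene symbols, 34 of them neuronal or Bex family genes and 3 of them glial, and every probe set annotated to exactly 1 of these symbols was taken. All 37 were among the 18193 genes with such a probe set on the array. They had 83 probe sets, of which 51, for 35 genes, passed a filter on dim values. Nefm, a neurofilament subunit, and Chat, the enzyme that makes acetylcholine, did not pass, with levels of 4.43 to 5.16 and of 4.12 to 4.87 over the 9 arrays. The filter asked for at least 3 of the 9 arrays above 4.95, whatever their group. Of the 35 tested genes, 16 were above that level on all 9 arrays and 0 were above it in 1 group only.

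RNA was measured on 9 Affymetrix arrays of a whole-genome mouse type in 3 groups of 3 male mice aged 6 to 8 weeks. Mutant jejunum came from Gata4loxP/-VilCre mice, which pair a loxP-flanked copy of Gata4 with a null copy. Control ileum and control jejunum came from Gata4loxP/+VilCre mice, which pair that loxP-flanked copy with a wild-type copy. All groups thus carried the Cre transgene and 1 floxed copy. The jejunal site lay 10 cm past the pylorus and the ileal site 1 cm short of the cecum, and the ileum and jejunum controls were different animals. The villin promoter drives Cre in the epithelium, so neurons and glia are not among the cells in which it is active, but mutant neurons and glia still carry the null copy. The labels do not say which layers of the gut wall were taken.

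Enteric neurons and glia form the nervous system of the gut wall. Their cell bodies lie in ganglia between the muscle layers and under the mucosa, and their fibres reach the muscle, the vessels and the epithelium. They come from neural crest cells that enter the gut under the control of the receptors Ret and Ednrb. Excitatory motor neurons use acetylcholine with tachykinins, the peptides encoded by Tac1, while inhibitory motor neurons use nitric oxide with the peptide encoded by Vip. Glia surround the neurons and are marked by Sox10, S100b and Gfap. Several of these genes are not exclusive to neurons: Tac1 and Snap25 are also expressed by enteroendocrine cells of the epithelium, and Ednrb by vessels. In RNA of whole tissue, fewer cells of a type and less RNA per cell cannot be told apart.

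Levels are given on the quantile-normalized log2(intensity + 16) scale, on which an intensity of 0 before normalization stands at 4, and differences are differences of these levels, which understate the change of dim genes. Each gene is represented by its brightest tested probe set. Levels of different genes come from different probes and are not compared with each other. The trimmed mean intensity of the arrays was 147 to 180 in mutant jejunum, 96.8 to 122 in control ileum and 150 to 172 in control jejunum, so array brightness and gut segment cannot be told apart before scaling. Mutant jejunum 3 had the lowest array weight in limma, 0.384, where the other 8 arrays ran from 0.765 to 1.87, and values without it are given for each gene of the list whose call they change. The brighter Gata4 probe set stood at 9.61, 9.51 and 9.38 in mutant jejunum, 5.64, 5.30 and 5.20 in control ileum and 9.57, 9.49 and 9.52 in control jejunum. No source used here places it inside or outside the deleted part of the gene, so it does not check the mutant label.

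In both comparisons with control ileum the widest differences belonged to Bex1 and Bex4, members of a family of small brain-expressed X-linked proteins. Their promoter windows are shown first because they are near-copies of each other, while that of the third member, Bex2, is not. The windows are those of RefSeq on the GRCm38.p6 build, from 250 bases before to 50 bases after the annotated start, and 26 of the 37 genes had an entry. Bex1 lies at chrX:136215464-136215763 (- strand), Bex4 at chrX:136138746-136139045 (+ strand) and Bex2 at chrX:136068187-136068486 (- strand). Capitals mark the longest run shared by Bex1 and Bex4 and, in Bex2, its longest run shared with Bex1:
Bex1: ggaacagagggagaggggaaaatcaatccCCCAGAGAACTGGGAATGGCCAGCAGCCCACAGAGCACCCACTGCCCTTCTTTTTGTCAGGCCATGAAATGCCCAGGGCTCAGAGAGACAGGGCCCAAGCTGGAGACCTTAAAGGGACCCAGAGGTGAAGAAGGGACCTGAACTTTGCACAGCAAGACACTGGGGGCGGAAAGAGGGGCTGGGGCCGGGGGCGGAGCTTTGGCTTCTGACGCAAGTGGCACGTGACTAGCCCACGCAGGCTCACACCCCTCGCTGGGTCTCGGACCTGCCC
Bex4: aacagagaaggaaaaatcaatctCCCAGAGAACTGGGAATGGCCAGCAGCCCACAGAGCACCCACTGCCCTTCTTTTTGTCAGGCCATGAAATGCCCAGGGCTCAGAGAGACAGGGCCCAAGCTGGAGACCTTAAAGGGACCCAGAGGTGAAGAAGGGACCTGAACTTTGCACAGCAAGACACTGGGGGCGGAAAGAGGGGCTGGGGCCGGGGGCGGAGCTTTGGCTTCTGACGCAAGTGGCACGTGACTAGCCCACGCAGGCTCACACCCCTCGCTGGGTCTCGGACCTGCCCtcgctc
Bex2: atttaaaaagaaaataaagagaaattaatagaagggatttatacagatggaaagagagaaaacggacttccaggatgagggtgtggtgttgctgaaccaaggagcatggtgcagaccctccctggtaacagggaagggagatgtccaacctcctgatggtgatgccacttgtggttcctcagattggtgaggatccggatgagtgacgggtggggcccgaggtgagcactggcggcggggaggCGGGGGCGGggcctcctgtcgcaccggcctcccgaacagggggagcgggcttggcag
In a global alignment that allows gaps, 294 bases of the Bex1 and Bex4 windows were paired and 291 of these were identical, with a longest shared run of 271 bases. The longest run that Bex2 shared with Bex1 was 9 bases. Among all 32851 windows in the table, only that of Bex4 shared a run of 30 bases with Bex1. None of these 3 windows held the GATA words AGATAA and AGATAG, or the words TGATAA and TGATAG, on either strand. Such a word was present in 29.8% of all windows and in 11 of the 35 windows (31.4%) that the 26 genes of the list had between them. These matches describe the letters of the windows only. Array probe sequences were not used here, so whether the Bex1 and Bex4 probe sets read each other's transcript was not tested.

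Bex1 stood at 6.83, 6.39 and 7.59 in mutant jejunum 1, 2 and 3, at 9.73, 9.79 and 9.84 in control ileum, and at 5.47, 5.89 and 5.74 in control jejunum. The 3 groups did not overlap, and the mutant arrays lay between the control segments. In the deposited intensities this was 114, 78.0 and 182 in mutant jejunum, 556, 727 and 719 in control ileum and 32.3, 49.6 and 43.5 in control jejunum. Against control jejunum, Bex1 was higher in mutant jejunum by 1.23 (SE 0.25, limma adjusted p = 0.0233) and in control ileum by 4.09 (SE 0.25, adjusted p = 3.76e-06). Mutant jejunum was lower than control ileum by 2.86 (adjusted p = 0.000288). The mutant call against control jejunum was lost without any 1 of the 3 control jejunum arrays and when these groups were fitted alone, with adjusted p-values up to 0.0806. It held without mutant jejunum 3, at 0.90 (adjusted p = 0.0244).

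Bex4 followed the same order of groups at 5.46, 5.18 and 5.33 in mutant jejunum, 7.26, 7.38 and 7.97 in control ileum and 4.63, 4.42 and 5.00 in control jejunum. The mutant arrays all lay above the control jejunum arrays, but the difference of 0.64 (SE 0.22) did not pass the test (limma adjusted p = 0.152). Control ileum was higher than control jejunum by 2.85 (adjusted p = 1.41e-05), and mutant jejunum was lower than control ileum by 2.21 (adjusted p = 0.000666). Bex2 averaged 6.03 ± 0.30 in mutant jejunum, 6.30 ± 0.29 in control ileum and 5.96 ± 0.01 in control jejunum (SD, n = 3 each) and was called in none of the 3 comparisons by limma. Its differences were 0.07 for mutant jejunum against control jejunum and 0.35 for control ileum against control jejunum, with adjusted p-values of 0.898 and 0.242. Among the 32 tested genes outside the Bex family, the differences between control ileum and control jejunum ran from -1.46 to 1.15.

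**Figure D1:**
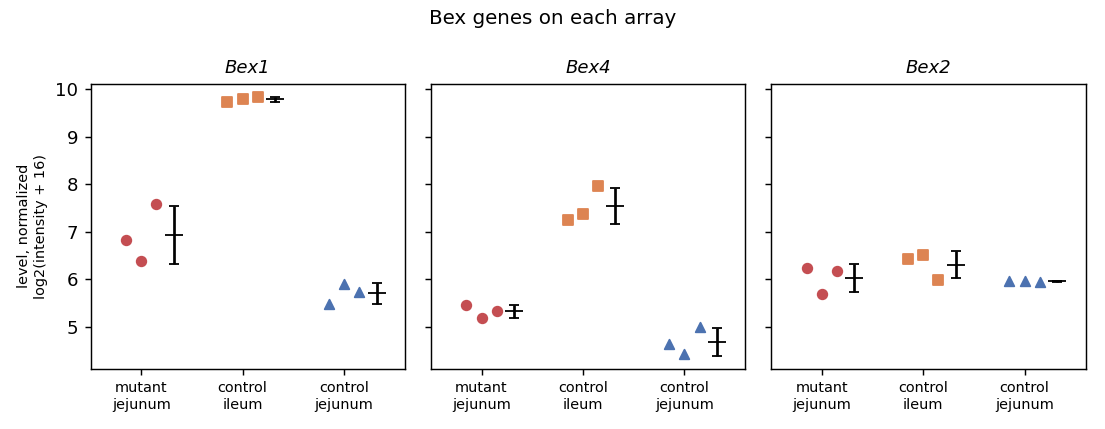
Normalized log2(intensity + 16) level of Bex1, Bex4 and Bex2 on each array of mutant jejunum, control ileum and control jejunum. Points are arrays, and bars give the mean and 1 SD of 3 arrays. The ileum arrays of Bex1 (9.73 to 9.84) and Bex4 (7.26 to 7.97) lie above all jejunum arrays, while the Bex2 groups overlap or nearly touch.

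The comparison of mutant with control jejunum asks whether loss of epithelial Gata4 goes with a change in nerve transcripts. By limma, 1 of the 35 tested genes was called higher in mutant jejunum, which was Bex1, and 0 were called lower. Over all 13830 genes tested, 2.10% were called higher and 2.29% lower in this comparison. At an unadjusted p under 0.05, 4 genes of the list were higher and 5 lower. The median difference over the 35 genes was -0.19, beside 0.00 over all genes tested, with 12 genes above 0 and 23 below. The mutant arrays all lay above the control arrays for 4 genes and all below them for 4, where 12.2% and 12.8% of all genes did so.

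**Figure D2:**
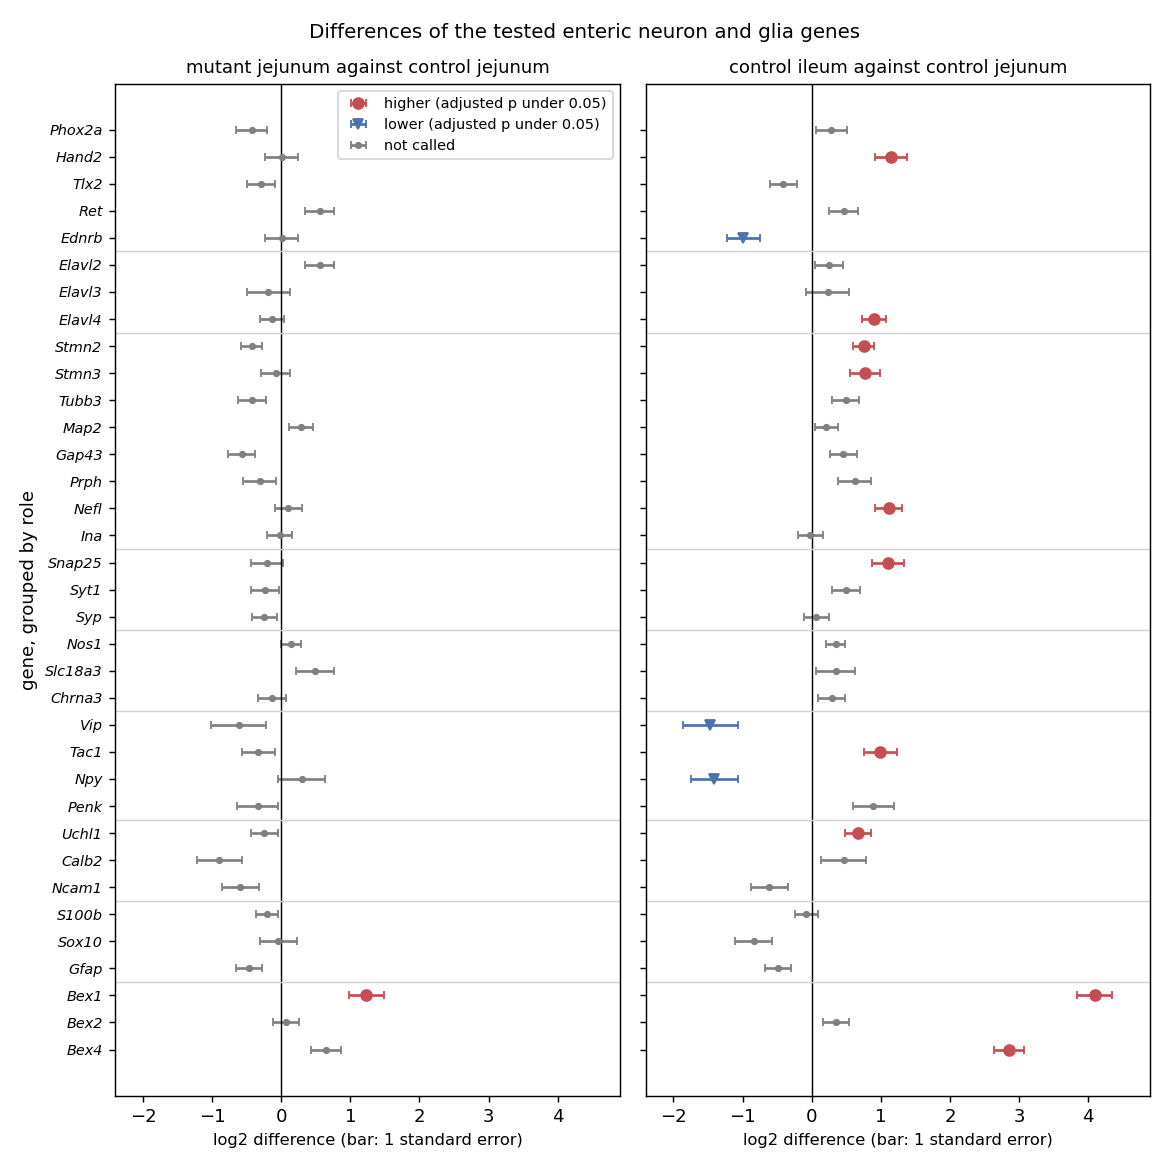
Log2 difference of each tested gene, grouped by role, for mutant jejunum against control jejunum (left) and control ileum against control jejunum (right). Bars are 1 standard error from limma, red circles and blue triangles mark genes called higher and lower at an adjusted p under 0.05, and grey points were not called. On the left only Bex1 (1.23) is called. On the right 10 genes are called higher and 3 lower. The panels share the control jejunum arrays.

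The 4 genes above control jejunum on all mutant arrays were Bex1, Bex4, Elavl2 and Map2, and the 4 below it were Stmn2, Tubb3, Gap43 and Gfap. Gap43, a growth cone protein of axons, stood at 4.61, 4.61 and 5.23 in mutant jejunum, 5.82, 6.07 and 5.65 in control ileum and 5.38, 5.41 and 5.38 in control jejunum. Its difference between mutant and control jejunum was -0.57 (SE 0.20, limma adjusted p = 0.170), and without mutant jejunum 3 it was -0.78 (adjusted p = 0.0482). Calb2, a calcium-binding protein of many enteric neurons, stood at 4.33, 4.37 and 5.48 in mutant jejunum, 6.23, 6.46 and 5.55 in control ileum and 5.41, 5.50 and 5.94 in control jejunum. It differed by -0.89 (SE 0.33, adjusted p = 0.192), and mutant jejunum 3 was the single mutant array within the range of the control jejunum arrays. Without mutant jejunum 3 the Calb2 difference was -1.27 against control jejunum (adjusted p = 0.0384) and -1.73 against control ileum (adjusted p = 0.0110), beside -1.36 against control ileum with all arrays (adjusted p = 0.0553). Gap43 and Calb2 were thus both called lower than in control jejunum without that array. Both genes lay below the filter level of 4.95 on every mutant array left in that fit. These levels were 4.61 and 4.61 for Gap43 and 4.33 and 4.37 for Calb2, so the calls rest on dim mutant values. With arrays weighted by their quality Gap43, Calb2, Ncam1 and Stmn2 were called lower than in control jejunum. Ncam1 and Stmn2 each had a second tested probe set. Without array weights these gave 0.04 and -0.15 for mutant against control jejunum and were not called.

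The comparison of control ileum with control jejunum gives the regional background of these genes. In control ileum 10 of the 35 tested genes were called higher and 3 lower by limma, where 8.79% of all genes were called higher and 9.12% lower. The higher genes were Bex1, Bex4, Elavl4, Hand2, Nefl, Snap25, Stmn2, Stmn3, Tac1 and Uchl1, and the lower ones were Ednrb, Npy and Vip. The median difference over the list was 0.35, beside 0.03 over all genes tested. The ileum arrays all lay above the jejunum arrays for 17 genes and all below them for 5, where 21.2% and 18.9% of all genes did so. This split depends on scaling. With no scaling between arrays, which shifted the median of all genes to -0.42, 5 genes of the list were called higher and 7 lower. The 5 were Bex1, Bex4, Hand2, Nefl and Snap25. Over all genes tested, no scaling called 317 higher and 5029 lower, beside 1216 and 1261 with quantile normalization. The median of the list was then 0.06, still above that of all genes.

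Setting mutant jejunum against control ileum shows how far the mutant segment lies from the distal one. In mutant jejunum 1 of the 35 genes was called higher, which was Npy, and 11 were called lower by limma, where 1.97% of all genes were called higher and 1.70% lower. The 11 were Bex1, Bex4, Elavl4, Gap43, Hand2, Nefl, Snap25, Stmn2, Tac1, Tubb3 and Uchl1. The median difference over the list was -0.42, beside -0.02 over all genes tested. The mutant arrays all lay below the ileum arrays for 20 genes and all above them for 3, where 11.8% and 10.8% of all genes did so. The 3 comparisons share arrays in pairs, so their counts are not independent of each other.

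The transcription factors and receptors of enteric neuron development showed no common direction. Hand2, a transcription factor needed for enteric neurons to mature, stood at 5.86, 6.44 and 5.69 in mutant jejunum, 7.38, 7.29 and 6.74 in control ileum and 5.87, 6.27 and 5.83 in control jejunum. All ileum arrays lay above all jejunum arrays of either genotype. Hand2 was higher in control ileum than in control jejunum by 1.15 (SE 0.23, limma adjusted p = 0.00766) and lower in mutant jejunum than in control ileum by 1.14 (adjusted p = 0.0299). Mutant and control jejunum differed by 0.01 (SE 0.23). A second Hand2 probe set was also called higher in control ileum than in control jejunum (0.89, adjusted p = 0.0337), but not lower in mutant jejunum than in control ileum (-0.59, adjusted p = 0.273). The call against control jejunum held under all 21 alternatives, whereas that between mutant jejunum and control ileum was lost under 6, among them without mutant jejunum 1 or 3 or control ileum 1 or 2 (adjusted p up to 0.119). Without mutant jejunum 3 the difference between mutant jejunum and control ileum was -0.99 (adjusted p = 0.0588).

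Ednrb, the receptor for endothelin-3, stood at 7.73, 7.72 and 8.64 in mutant jejunum, 6.97, 6.82 and 7.30 in control ileum and 7.99, 8.20 and 7.86 in control jejunum. It fell by 0.99 in control ileum against control jejunum (limma adjusted p = 0.0175), with no ileum array as high as a jejunum array. Its other 2 tested probe sets gave 0.12 and -0.42 and were not called, and the mean over the 3 was not called either. The call was also lost without control jejunum 2 or control ileum 1 or 2 (adjusted p up to 0.143). Ret, the receptor for glial-cell-line-derived neurotrophic factor, averaged 5.89 ± 0.31 in mutant jejunum, 5.80 ± 0.13 in control ileum and 5.34 ± 0.33 in control jejunum (SD, n = 3 each) and was not called. Phox2a and Tlx2, homeobox factors of autonomic and enteric neurons, differed by -0.43 and -0.29 between mutant and control jejunum and by 0.29 and -0.41 between control ileum and control jejunum, and neither was called.

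Ligands and partners that guide enteric progenitors were taken as a companion list of 7 genes, of which 5 were tested. None of the 5 was called by limma between mutant and control jejunum over all arrays. Edn3, the ligand of Ednrb, differed there by 0.65 (adjusted p = 0.0778). Leaving out mutant jejunum 3 made it a call (0.86, adjusted p = 0.00996), as it was with array weights and with the mean over its probe sets. Edn3 was higher in control ileum than in control jejunum by 0.79, and Ece1, the enzyme that cuts endothelins to their active form, was lower by 0.96. The Edn3 call between the control segments was lost with no scaling and with arrays centred on their medians.

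The Elavl genes encode neuronal RNA-binding proteins used to count enteric neurons. Elavl4 stood at 4.95, 5.22 and 4.65 in mutant jejunum, 6.00, 5.95 and 5.96 in control ileum and 4.94, 5.11 and 5.16 in control jejunum. The ileum arrays formed a narrow band above both jejunum groups, which overlapped each other. Elavl4 was higher in control ileum than in control jejunum by 0.90 (SE 0.18, limma adjusted p = 0.00580) and lower in mutant jejunum than in control ileum by 1.03 (adjusted p = 0.0145). Of its other 2 tested probe sets, 1 was called higher in control ileum (0.64, adjusted p = 0.0449), 1 was not (0.65, adjusted p = 0.0794), and neither was called between mutant jejunum and control ileum. The call between the control segments was lost with no scaling (adjusted p = 0.0626), and that between mutant jejunum and control ileum without mutant jejunum 1 or control ileum 2 (adjusted p up to 0.0618). Elavl2 and Elavl3 were not called, with differences of 0.25 and 0.23 for control ileum against control jejunum. Elavl2 had a mutant difference of 0.56 against control jejunum (SE 0.21, adjusted p = 0.200).

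Among 8 tested genes of the neuronal cytoskeleton and growth cone, 0 were called between mutant and control jejunum, where 2.10% of all genes were called higher and 2.29% lower. In control ileum 3 were called higher than in control jejunum, where 8.79% of all genes were. In mutant jejunum 4 were called lower than in control ileum, where 1.70% of all genes were. Stmn2, a microtubule regulator of growing axons, stood at 5.33, 5.31 and 5.63 in mutant jejunum, 6.76, 6.53 and 6.51 in control ileum and 5.76, 5.83 and 5.95 in control jejunum. By this probe set the 3 groups did not overlap, with mutant jejunum lowest. Against control jejunum, Stmn2 differed by -0.42 in mutant jejunum (SE 0.15, limma adjusted p = 0.180) and was higher in control ileum by 0.75 (SE 0.15, adjusted p = 0.00696). Mutant jejunum was lower than control ileum by 1.18 (adjusted p = 0.00335), and a second probe set was called the same way in both comparisons with ileum. On that second probe set mutant and control jejunum overlapped, with a difference of -0.15 (adjusted p = 0.794). With no scaling the call of the brightest probe set between the control segments was lost (adjusted p = 0.141).

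Nefl, the light neurofilament subunit, stood at 5.02, 5.19 and 4.74 in mutant jejunum, 5.95, 6.21 and 5.82 in control ileum and 4.72, 4.79 and 5.14 in control jejunum. Both jejunum groups shared a range below that of ileum. It was higher in control ileum than in control jejunum by 1.11 (SE 0.19, limma adjusted p = 0.00287) and lower in mutant jejunum than in control ileum by 1.01 (adjusted p = 0.0226). Its second probe set was called between the control segments (1.08, adjusted p = 0.00622), but not between mutant jejunum and control ileum (-0.88, adjusted p = 0.0558). The first call held under all 20 alternatives that tested it, and the second was lost without mutant jejunum 1 or control ileum 1 or 2 (adjusted p up to 0.0988).

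Stmn3, a relative of Stmn2, stood at 5.62, 5.73 and 5.66 in mutant jejunum, 6.72, 6.79 and 6.04 in control ileum and 5.46, 5.84 and 5.95 in control jejunum. It was higher in control ileum than in control jejunum by 0.77 (SE 0.21, limma adjusted p = 0.0312), with control ileum 3 close to the jejunum arrays, and its second probe set was not called (0.58, adjusted p = 0.0666). Leaving out control jejunum 1 or 2 or control ileum 1 or 2, no filter or no scaling ended the Stmn3 call (adjusted p up to 0.221). Tubb3, the neuronal beta-tubulin, stood at 4.48, 4.73 and 4.88 in mutant jejunum, 5.98, 5.53 and 5.32 in control ileum and 5.11, 5.10 and 5.14 in control jejunum. Its groups did not overlap, but the only call was mutant jejunum lower than control ileum, by 0.91 (adjusted p = 0.0381), and this was lost under 10 of 20 alternatives, among them leaving out any array but mutant jejunum 3 or control ileum 3. Gap43, whose array values stand above, was lower in mutant jejunum than in control ileum by 1.03 (adjusted p = 0.0248). This Gap43 call was lost without mutant jejunum 1 or 2 or control ileum 1 or 2 and when these groups were fitted alone (adjusted p up to 0.107). The others, Map2, Prph and Ina, which encode a dendritic microtubule-associated protein and 2 intermediate filament proteins of neurons, were not called and differed by 0.29, -0.31 and -0.02 between mutant and control jejunum.

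**Figure D3:**
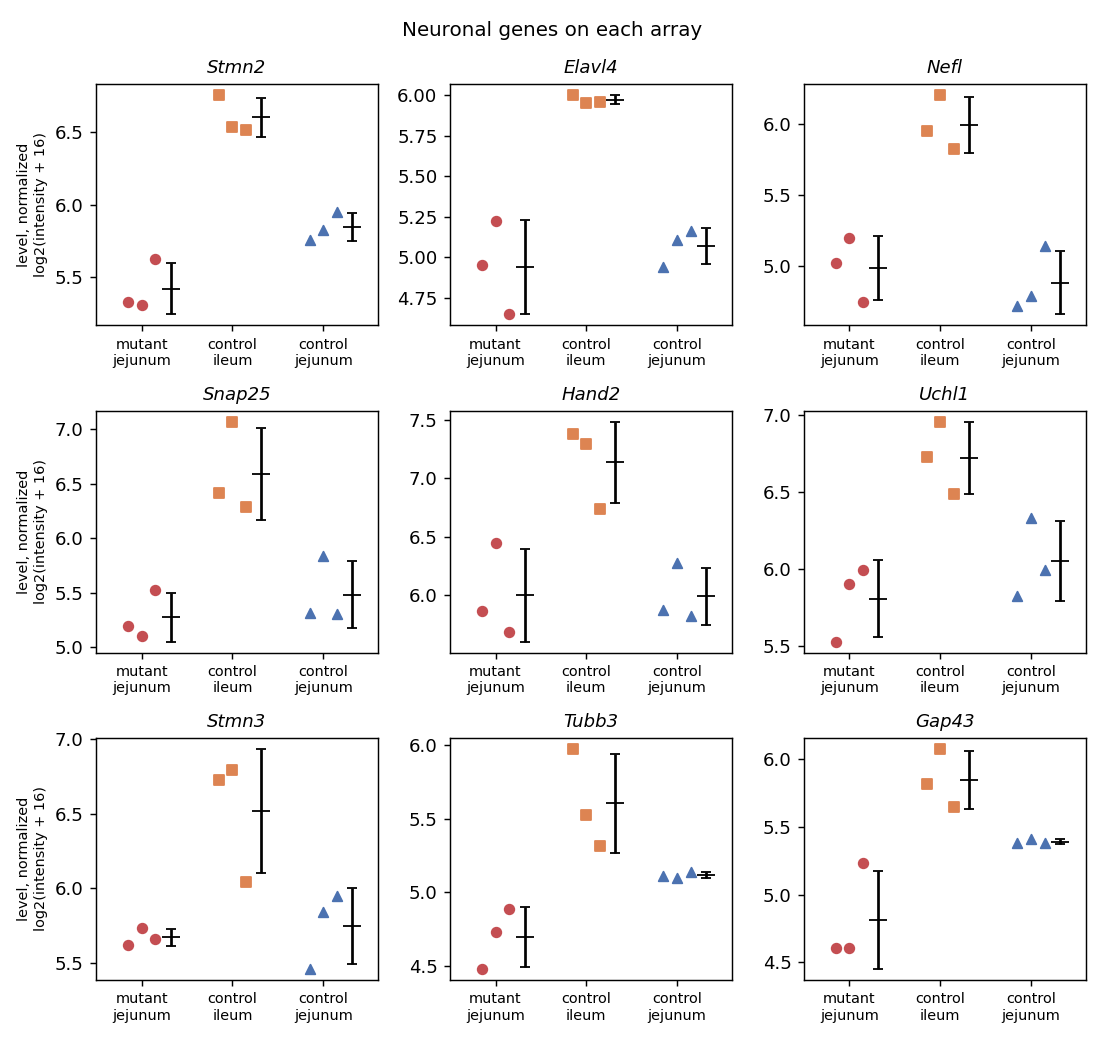
Normalized log2(intensity + 16) level on each array of 9 neuronal genes called in at least 1 comparison. Points are arrays, bars are the mean and 1 SD of 3 arrays, and each panel has its own axis. For Hand2, Nefl, Elavl4 and Snap25 all ileum arrays lie above the jejunum arrays of both genotypes, and for Stmn2, Tubb3 and Gap43 the mutant arrays also lie below the control jejunum arrays.

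Of the synaptic genes, Snap25, a protein of the vesicle fusion machinery, stood at 5.20, 5.10 and 5.52 in mutant jejunum, 6.41, 7.07 and 6.28 in control ileum and 5.31, 5.83 and 5.30 in control jejunum. It was higher in control ileum than in control jejunum by 1.11 (SE 0.24, limma adjusted p = 0.00931) and lower in mutant jejunum than in control ileum by 1.31 (adjusted p = 0.0176), while mutant and control jejunum overlapped. The call between the control segments held under all 21 alternatives, and that between mutant jejunum and control ileum was lost without mutant jejunum 1 or 2 or control ileum 2 (adjusted p up to 0.0717). Syt1, the calcium sensor of vesicle release, and Syp, a vesicle membrane protein, were not called, with differences of 0.49 and 0.06 for control ileum against control jejunum. Uchl1, a ubiquitin hydrolase abundant in neurons, stood at 5.53, 5.90 and 6.00 in mutant jejunum, 6.73, 6.95 and 6.48 in control ileum and 5.82, 6.33 and 5.99 in control jejunum. It was higher in control ileum than in control jejunum by 0.67 (SE 0.19, adjusted p = 0.0372) and lower in mutant jejunum than in control ileum by 0.91 (adjusted p = 0.0338). These Uchl1 calls were lost under 9 and 8 of 21 alternatives, among them no scaling, no filter and leaving out control jejunum 3, mutant jejunum 2 or control ileum 1 or 2. The first was also lost with arrays centred on their medians, with trimmed mean scaling and without control jejunum 1, so it held only with quantile normalization. The second was also lost without mutant jejunum 1 and when these groups were fitted alone. Ncam1, a neural cell adhesion molecule, differed by -0.59 and -0.61 against control jejunum in mutant jejunum and control ileum and was not called (adjusted p = 0.295 and 0.148). Its second tested probe set gave 0.04 and -0.30 (adjusted p = 0.977 and 0.603).

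The transmitter genes that passed the filter were Nos1, which makes nitric oxide, Slc18a3, which loads acetylcholine into vesicles, and Chrna3, a nicotinic receptor subunit of ganglia. None of these 3 was called by limma in any comparison. Nos1 averaged 5.98 ± 0.08 in mutant jejunum, 6.19 ± 0.03 in control ileum and 5.84 ± 0.16 in control jejunum (SD, n = 3 each). Slc18a3 averaged 4.92 ± 0.23, 4.77 ± 0.53 and 4.43 ± 0.31 in mutant jejunum, control ileum and control jejunum, so that all 3 means lie below the filter level of 4.95. Chrna3 differed by -0.13 between mutant and control jejunum and by 0.29 between control ileum and control jejunum.

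The peptide precursors went in different directions between the control segments, and their promoter windows are printed because cyclic AMP signalling is a textbook inducer of Vip and Tac1. Capitals mark TGACG, the core of the cyclic AMP response element, on either strand:
Vip: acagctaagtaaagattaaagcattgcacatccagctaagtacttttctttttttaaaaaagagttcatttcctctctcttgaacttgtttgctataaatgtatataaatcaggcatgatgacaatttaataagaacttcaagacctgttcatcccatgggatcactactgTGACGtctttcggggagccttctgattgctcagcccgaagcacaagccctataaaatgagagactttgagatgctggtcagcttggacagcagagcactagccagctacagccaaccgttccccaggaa
Tac1: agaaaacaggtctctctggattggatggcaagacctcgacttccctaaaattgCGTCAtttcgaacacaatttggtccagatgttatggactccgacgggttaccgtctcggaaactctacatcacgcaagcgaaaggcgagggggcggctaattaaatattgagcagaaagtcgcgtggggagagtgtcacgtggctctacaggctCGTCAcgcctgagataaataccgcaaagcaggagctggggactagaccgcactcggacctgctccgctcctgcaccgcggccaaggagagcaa
Npy: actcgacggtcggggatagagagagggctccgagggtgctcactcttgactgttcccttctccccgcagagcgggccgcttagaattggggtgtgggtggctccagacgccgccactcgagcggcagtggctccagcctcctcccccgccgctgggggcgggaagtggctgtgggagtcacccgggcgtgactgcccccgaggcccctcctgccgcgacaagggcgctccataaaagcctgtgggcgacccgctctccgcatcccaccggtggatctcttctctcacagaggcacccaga
These windows lie at chr10:5638968-5639267 (+ strand), chr6:7554811-7555110 (+ strand) and chr6:49822460-49822759 (+ strand) on GRCm38.p6. TGACG was found at 1 place in Vip, 2 in Tac1 and 0 in Npy. It was present in 20.8% of all windows and in 16 of the 35 windows (45.7%) of the list, and the palindrome TGACGTCA was in 1.79% of all windows and in 0 of the list. A match in a window is not evidence of a bound site.

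Vip, the relaxant and secretomotor peptide, stood at 7.90, 8.29 and 9.37 in mutant jejunum, 7.78, 7.31 and 7.93 in control ileum and 8.29, 9.57 and 9.55 in control jejunum. Both jejunum groups were spread over more than 1 log2 unit, while the ileum arrays were all below the control jejunum arrays. Against control jejunum, Vip was lower in control ileum by 1.46 (SE 0.40, limma adjusted p = 0.0297). That call was lost without control jejunum 2 or 3 or without any 1 ileum array, with adjusted p-values up to 0.112. Mutant jejunum differed from control jejunum by -0.62 (SE 0.40, adjusted p = 0.481) and from control ileum by 0.85 (adjusted p = 0.326).

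Npy, a peptide of secretomotor neurons and of sympathetic fibres, stood at 6.31, 6.58 and 7.42 in mutant jejunum, 5.59, 4.32 and 5.29 in control ileum and 6.17, 6.72 and 6.53 in control jejunum. All ileum arrays were below all jejunum arrays of either genotype. Against control jejunum, Npy was lower in control ileum by 1.41 (SE 0.34, limma adjusted p = 0.0185), a call lost without control jejunum 2, control jejunum 3 or control ileum 2. It was higher in mutant jejunum than in control ileum by 1.70 (adjusted p = 0.0289). That call was lost under 8 of 21 alternatives, among them leaving out any 1 mutant array, and without mutant jejunum 3 the difference was 1.37 (adjusted p = 0.0522).

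Tac1, the precursor of substance P and neurokinin A, ran the other way, at 7.45, 7.58 and 8.40 in mutant jejunum, 8.89, 9.12 and 9.39 in control ileum and 7.90, 8.31 and 8.22 in control jejunum. It was higher in control ileum than in control jejunum by 0.99 (SE 0.24, limma adjusted p = 0.0165) and lower in mutant jejunum than in control ileum by 1.32 (adjusted p = 0.0176). The first call was lost with no scaling and without control jejunum 1 or control ileum 3 (adjusted p up to 0.124). The second was lost without mutant jejunum 1 or 2 or control ileum 2 or 3 and when these groups were fitted alone (adjusted p up to 0.0718). Against control jejunum the mutant differed by -0.33 (SE 0.24, adjusted p = 0.528), with mutant jejunum 1 and 2 below and mutant jejunum 3 above the control arrays. Penk, the enkephalin precursor, stood at 4.83, 5.56 and 4.27 in mutant jejunum, 6.48, 6.18 and 5.71 in control ileum and 5.12, 5.34 and 5.23 in control jejunum. Its ileum arrays lay above all others, but the differences of 0.89 against control jejunum and -1.23 for mutant jejunum against control ileum did not pass the test (adjusted p = 0.0654 and 0.0555). Without mutant jejunum 3, which changes the shared estimate of the spread, Penk was called higher in control ileum than in control jejunum (0.89, adjusted p = 0.0268).

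**Figure D4:**
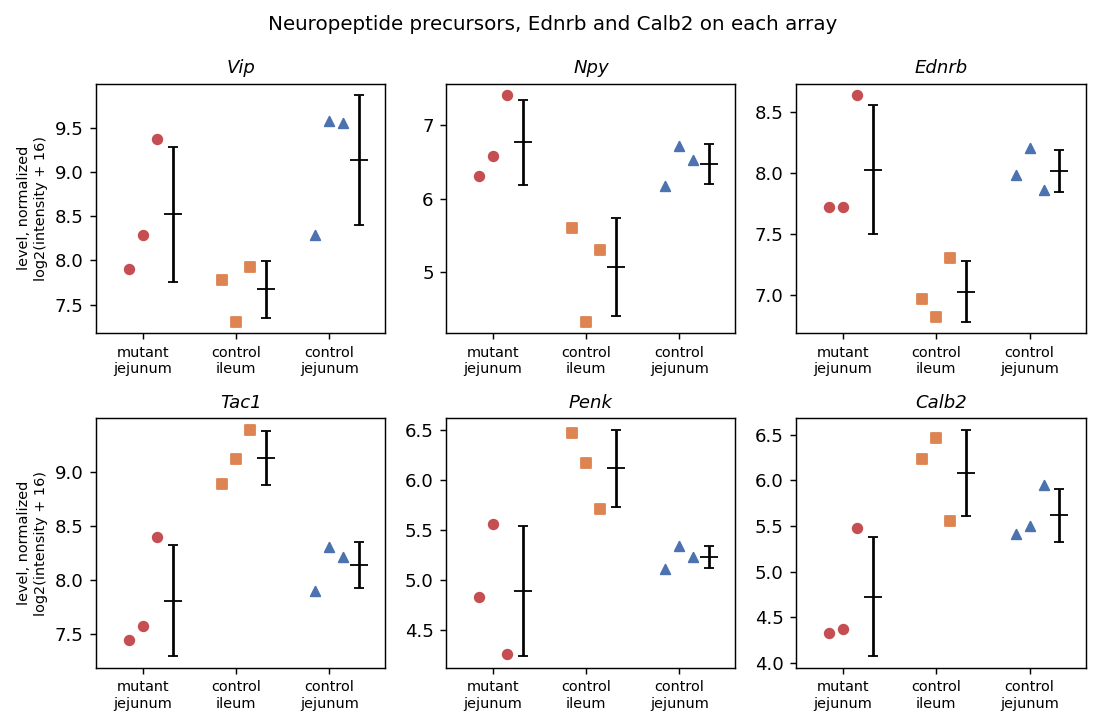
Normalized log2(intensity + 16) level on each array of the peptide precursors Vip, Npy, Tac1 and Penk and of Ednrb and Calb2. Points are arrays, bars are the mean and 1 SD of 3 arrays, and each panel has its own axis. In control ileum Vip, Npy and Ednrb are low and Tac1 and Penk high against control jejunum, and mutant jejunum 3 is the highest mutant array in every panel except that of Penk.

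The glial genes gave no call. S100b, a calcium-binding protein of glia, averaged 5.00 ± 0.07 in mutant jejunum, 5.12 ± 0.03 in control ileum and 5.20 ± 0.21 in control jejunum (SD, n = 3 each), close to the filter level of 4.95. Sox10, the neural crest transcription factor kept by glia, averaged 5.54 ± 0.05, 4.75 ± 0.54 and 5.59 ± 0.36 in the same order of groups, with a difference of -0.84 for control ileum against control jejunum (limma adjusted p = 0.0537). A second tested Sox10 probe set did not show this difference (0.01, adjusted p = 0.988). Gfap, the glial intermediate filament, averaged 5.06 ± 0.05 in mutant jejunum, 5.04 ± 0.30 in control ileum and 5.53 ± 0.21 in control jejunum. Its differences against control jejunum were -0.47 and -0.49 in mutant jejunum and control ileum (adjusted p = 0.236 and 0.102). The defining glial markers were thus near the dim end of the tested range, and Chat, a defining neuronal enzyme, was below the filter. Several called genes were as dim in 1 of the compared groups. Tubb3 and Gap43 averaged 4.70 and 4.82 in mutant jejunum, and Nefl and Bex4 4.88 and 4.68 in control jejunum. In a companion list of other enteric glia genes, 7 of 14 were tested and 0 were called in any comparison over all arrays, with medians of -0.13 for mutant jejunum against control jejunum and -0.17 for control ileum against control jejunum. Kcnj10, a glial potassium channel, differed by -0.69 in control ileum against control jejunum (adjusted p = 0.0602) and was called lower there without mutant jejunum 2 or 3 (adjusted p = 0.0228 without 3), with array weights, with the replicate block and when these groups were fitted alone. With no scaling 3 of the 7 were called lower in that comparison, and with array weights Kcnj10 was also called lower in mutant than in control jejunum.

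Other enteric neuron genes were taken as a companion list of 39, of which 26 were tested. Between mutant and control jejunum 1 was called, Nsg2, a neuronal endosome protein, which averaged 4.45 ± 0.28 in mutant jejunum and 5.26 ± 0.12 in control jejunum and was lower by 0.81 (SD, n = 3 each, limma adjusted p = 0.0381). That call was lost without control jejunum 1, 2 or 3, mutant jejunum 1 or 2 or control ileum 2, with no filter, a filter at the 60th percentile or a pseudocount of 64, with the replicate block and when these groups were fitted alone. In control ileum 6 were called higher and 1 lower, against control jejunum, where no scaling gave 2 higher and 2 lower and array weights 10 higher. The higher ones included Gal, the galanin precursor, by 1.37, Grp, the gastrin-releasing peptide, by 1.21, and Calcb, a calcitonin gene-related peptide, by 1.09. The lower gene was Dbh, the enzyme that makes noradrenaline in sympathetic fibres, by 1.01. In mutant jejunum 0 of the 26 were called higher and 5 lower than in control ileum, with Gal (-1.58) the most different. With an array left out, the 6 became 3 to 7, lowest without control jejunum 1 or 3 or control ileum 2, and the 5 became 2 to 6, lowest without mutant jejunum 1 or control ileum 2. The 5 became 8 with array weights and 2 with a filter at the 60th percentile. Dbh was not called with the mean over its probe sets.

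Smooth muscle markers moved with the regional difference. Of 12 smooth muscle genes, 11 were called higher in control ileum than in control jejunum and 10 lower in mutant jejunum than in control ileum, while 0 were called between mutant and control jejunum. The median difference over these 12 was 1.04 for control ileum against control jejunum, with 1.61 for Actg2, 1.35 for Cnn1 and 1.18 for Tpm2, all genes of the contractile apparatus. With no scaling, 2 of the 12 were called higher in control ileum than in control jejunum and 5 lower in mutant jejunum than in control ileum. Without control jejunum 3 the 11 became 7, and without mutant jejunum 1, control ileum 1 or control ileum 2 the 10 became 2, 4 and 2. Their summed level on the linear scale was 10023.3 to 15355.8 in mutant jejunum, 23656.5 to 30353.9 in control ileum and 11978.9 to 17876.6 in control jejunum. The part of muscle in the differences of the neuronal genes was not tested. Interstitial cells of Cajal, the pacemaker cells beside the ganglia, had 5 tested marker genes, of which 1, Kit, was called, higher in control ileum than in control jejunum by 0.78. With no scaling 0 of these markers were called higher there and 1 lower, and with array weights 2 were called higher.

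Enteroendocrine cells share several genes with neurons, and their 18 markers did not move together. In mutant jejunum Nts, Pyy and Sct were called higher and Cck, Gip and Chgb lower than in control jejunum, and without control jejunum 2 only 1 of these 3 was called lower. In control ileum 4 were called higher and 4 lower than in control jejunum, and the summed level was 5203.2 to 6707.8 in mutant jejunum, 6054.9 to 6655.1 in control ileum and 6014.1 to 6967.5 in control jejunum. Of 12 general epithelial genes, 3 were called higher in mutant jejunum and 6 in control ileum against control jejunum, and 0 lower. The 6 called higher became 3 without control jejunum 1. With no scaling, 2 were called higher and 2 lower in control ileum. Of 8 tested B and plasma cell genes, 0 were called in mutant jejunum and 3 were lower in control ileum, against control jejunum (0 without control jejunum 1 or 2, 1 without control ileum 1). Of 10 stroma and vessel genes, 0 were called in mutant jejunum, and in control ileum 1 was higher (Lum, 1.02) and 1 lower (Pdgfrb, -0.96) than in control jejunum, the second a call lost under most alternatives. Stroma and vessel genes averaged 0.66 above the control jejunum mean on mutant jejunum 3, against 0.03 and -0.14 on mutant jejunum 1 and 2. That array was also the highest mutant array for some genes of the list, among them Vip, Npy, Tac1, Ednrb, Calb2 and Bex1. It was the lowest mutant array for others, among them Hand2, Elavl4, Nefl, Ret, Phox2a and Penk. The part of the stroma and vessel shift in these values was not tested.

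**Figure D5:**
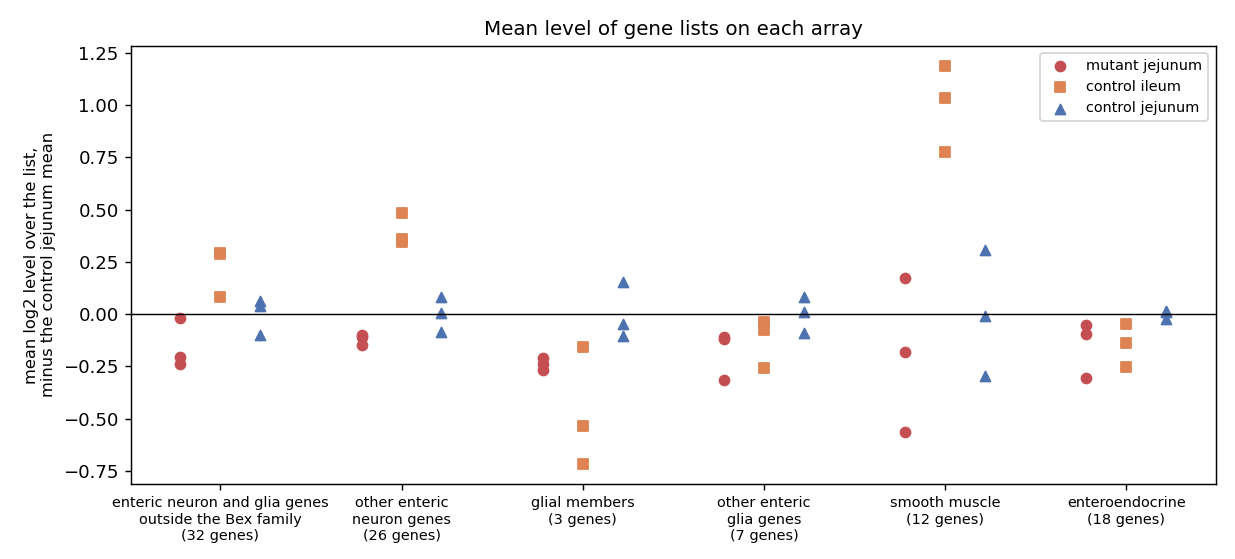
Mean log2 level over each gene list on each array, minus the control jejunum mean of every gene, for the tested neuronal and glial genes outside the Bex family and for the companion lists of other enteric neuron genes, other enteric glia genes, smooth muscle and enteroendocrine cells, with the 3 glial genes shown apart. Each point is 1 array. On the ileum arrays the smooth muscle mean is 0.78 to 1.19, against 0.08 to 0.29 for the neuronal and glial genes outside the Bex family and -0.72 to -0.16 for the 3 glial genes.

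Across the list, the mean of the 32 genes outside the Bex family relative to control jejunum was -0.24, -0.20 and -0.02 in mutant jejunum, 0.29, 0.29 and 0.08 in ileum, and -0.10, 0.06 and 0.04 in control jejunum. The mean of the smooth muscle genes was -0.18, 0.17 and -0.56 on the mutant arrays, 1.19, 1.03 and 0.78 on the ileum arrays and -0.30, 0.31 and -0.01 on the control jejunum arrays. Among the mutant arrays, mutant jejunum 3 had the lowest muscle mean and the highest mean of the 32 genes, which include the glial ones. The companion list of other enteric neuron genes was instead lowest on that array, at -0.11, -0.10 and -0.15 on mutant jejunum 1, 2 and 3.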

How the data were processed

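RNA of 9 mice, 3 per group, was measured on 1 array each. The authors deposited 1 linear intensity per probe set and array, made with GCOS, per the submitters' processing notes. Its version and settings, detection calls and scan batches were not among the sources used here. Groups come from the sample titles, and separate animals from the design text. Of 45101 probe sets, 64 controls were left out, and 45037 were quantile normalized as log2(intensity + 16). Probe sets with at least 3 arrays above the 40th percentile (4.95) were tested, which left 29307. Of all probe sets, 34945 have 1 annotated gene, 932 several and 9160 none, and only the first were named. limma 3.58.1 under R 4.3.3 was fitted over all 9 arrays with eBayes and a trend of the spread on mean level, two-sided. Benjamini-Hochberg adjustment ran over every probe set tested, with calls made below an adjusted p of 0.05. Each adjusted p of a gene is from this limma fit. A gene stands by its brightest tested probe set. The 3 arrays a group limit the precision, and an array gives no read depth.

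Every gene of the list could be named. Array values are given for called genes and for Penk and Calb2, which were added for their array values, and at most 3 called genes of a companion list and comparison are named by size. Dbh, Kcnj10 and the called enteroendocrine genes between mutant and control jejunum are named besides, chosen after their values were seen. The genes and companion lists were chosen with earlier results of these data known. Genes of the companion lists without a probe set are not analysed here. Promoter windows were read from RefSeq tables (GRCm38.p6), and windows were aligned with Biopython 1.88. Whether replicate numbers pair the arrays was checked by correlating deviations from group means. Same-numbered arrays correlated between -0.073 and 0.165, so the numbers were not taken as pairs.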

Additional observations from a re-analysis of the deposited data

How the results depend on the processing

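The alternatives covered scaling, pseudocount, filter, trend, array weights, probe set summary, fits of the compared groups alone, and each array left out. None of the called genes reversed direction. For mutant against control jejunum, the count of genes called higher was 0 in the fit of these groups alone and 0 to 1 with an array left out. The count called lower was 4 with array weights and 0 to 2 with an array left out, 2 of them without mutant jejunum 3. For control ileum against control jejunum, 5 were called higher and 7 lower with no scaling, and with an array left out 7 to 11 were higher and 0 to 3 lower, with 0 lower without control jejunum 2 and 7 higher without control jejunum 1. For mutant jejunum against control ileum, the genes called higher numbered 4 with no scaling, 2 with median centring, 2 with a filter at the 60th percentile, 2 with array weights, 0 with a pseudocount of 1, 0 with no filter, 0 in the fit of these groups alone and 0 to 1 with an array left out. Those called lower numbered 6 in the fit of these groups alone and 3 to 12 with an array left out, with 3 without mutant jejunum 1 or control ileum 2. The causes were not tested. Companion lists were recomputed under the same alternatives, a step added after seeing the data. No scaling moved the median of all genes to -0.42 for control ileum against control jejunum and to 0.44 for mutant jejunum against control ileum, and median centring moved the second to 0.13. Over all genes tested, no scaling called 317 higher and 5029 lower in control ileum against control jejunum. It called 4618 higher and 91 lower in mutant jejunum against control ileum. Small uncalled mutant differences against control jejunum changed sign. Hand2 was -0.0131 with no scaling, -0.0505 with trimmed mean scaling and -0.2147 to 0.1615 with an array left out. Ednrb was -0.0085 with trimmed mean scaling, -0.1624 with array weights and -0.2959 to 0.1640 with an array left out. With an array left out, Elavl4 was -0.2663 to 0.0171, Npy -0.0305 to 0.5187, Stmn3 -0.2212 to 0.0209 and Nefl -0.0010 to 0.2286. With the replicate number as a replicate block, 1 gene was called higher and 0 lower in mutant against control jejunum, 11 and 3 in control ileum against control jejunum, and 1 and 11 in mutant jejunum against control ileum. Not every array correlated best with its own number.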
